A study of Mus musculus with 4 samples.

Results

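The genes described here are Atrx, Daxx, Hira, Asf1a, Asf1b, Setdb1, Trim28, Suv39h1, Suv39h2 and Cbx5, a set of histone H3.3 chaperones and of factors that silence heterochromatin. They were found by an exact match of their symbols, and all 10 were present once each among the 53379 gene identifiers of the files. RNA was sequenced from DKO741, a line of Terc-/- mouse embryonic stem cells made from E14 cells by disrupting both alleles of Terc, the gene for the RNA template of telomerase. Cells of this line were harvested before they maintained telomeres by ALT (alternative lengthening of telomeres), at PD100 (pre-ALT), and after, at PD800 (post-ALT), with 2 libraries of each, described as biological duplicates. Both groups lack Terc, for which a single read pair was counted, in PD100 replicate 1, and none elsewhere. PD stands for population doubling, although the labels also count the same harvests in passages. The line comes from 1 knock-out clone and the PD800 cells are the survivors of its own long culture, so that doubling number, ALT and whatever else this culture acquired cannot be told apart.

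ATRX and DAXX act together to place the replication-independent histone variant H3.3 at telomeres, pericentromeric repeats and retrotransposons, and loss of either protein is known from human ALT tumours. HIRA places H3.3 in transcribed and regulatory chromatin, and the ASF1 proteins carry H3-H4 dimers to HIRA and to the replication-coupled assembly factor CAF-1. On the silencing side, KRAB zinc finger proteins recruit TRIM28 (KAP1), which brings the H3K9 methyltransferase SETDB1 to endogenous retroviruses in embryonic stem cells. SUV39H1 and SUV39H2 trimethylate H3K9 at pericentromeric and telomeric chromatin, and HP1alpha, the product of Cbx5, binds this mark.

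Of the 10 genes, Atrx and Setdb1 were higher and Asf1a was lower in PD800 than in PD100 cells. In the edgeR fit of all 4 libraries none of the 3 changed beyond 2-fold. On the TPM scale Asf1a did, though there the median over all genes also moved, to -0.12 and -0.21 at pseudocounts of 1 and 0.1. The promoters of these 3 genes are printed because the sections below turn on them. They are RefSeq sequences of GRCm38.p6, running from 250 bases before to 50 bases after the transcription start, 5' to 3' on the strand of the gene, and all 10 genes were matched by 14 such promoters. The Atrx promoter lies at chrX:105929323-105929622 on the minus strand, the Setdb1 promoter at chr3:95357153-95357452 on the minus strand, and the Asf1a promoter at chr10:53596711-53597010 on the plus strand. Capitals mark matches, on either strand, to the word CCAAT of the CCAAT box, to GGGCGG of the GC box, to the ETS core word CCGGAAG and to the YY1 word AANATGGCG. The pair of GC boxes of the Asf1a promoter adjoin each other.
Atrx: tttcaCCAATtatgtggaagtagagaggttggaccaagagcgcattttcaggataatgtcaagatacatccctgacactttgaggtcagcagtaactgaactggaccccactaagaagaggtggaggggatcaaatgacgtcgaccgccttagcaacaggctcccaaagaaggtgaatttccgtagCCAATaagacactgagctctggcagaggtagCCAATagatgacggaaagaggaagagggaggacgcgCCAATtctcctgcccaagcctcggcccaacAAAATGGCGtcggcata
Setdb1: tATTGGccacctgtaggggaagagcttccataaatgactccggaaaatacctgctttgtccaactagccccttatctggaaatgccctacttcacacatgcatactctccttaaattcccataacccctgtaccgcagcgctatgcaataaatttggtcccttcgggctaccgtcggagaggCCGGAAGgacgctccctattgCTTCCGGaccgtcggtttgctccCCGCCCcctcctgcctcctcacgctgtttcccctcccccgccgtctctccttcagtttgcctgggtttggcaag
Asf1a: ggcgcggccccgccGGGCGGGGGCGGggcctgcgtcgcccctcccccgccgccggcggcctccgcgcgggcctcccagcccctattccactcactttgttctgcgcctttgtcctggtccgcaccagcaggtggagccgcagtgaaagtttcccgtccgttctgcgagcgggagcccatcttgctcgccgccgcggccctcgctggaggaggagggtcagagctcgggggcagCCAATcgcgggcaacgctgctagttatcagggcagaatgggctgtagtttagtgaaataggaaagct
The sequences differ in base composition. The Asf1a promoter is 69.0% G or C and holds 31 CpG dinucleotides, against 55.3% and 15 in the Setdb1 promoter and 50.3% and 11 in the Atrx promoter, while the medians of all 32851 promoters are 52.7% and 7. The Atrx promoter holds 4 CCAAT words and 1 YY1 word and no GC box. In the Setdb1 promoter an ETS core word lies on each strand, beginning 68 and 47 bases before the start. Over all promoters of the table, CCAAT occurs in 37.4%, GGGCGG in 35.7%, CCGGAAG in 8.86% and AANATGGCG in 2.38%. These shares are per promoter, while the counts that follow are per gene, with a match in any of its promoters enough, so their units differ. Among the 10 genes, CCAAT was found for 7, GGGCGG for 9, CCGGAAG for 3 (Daxx, Hira and Setdb1) and the YY1 word for 5 (Atrx, Cbx5, Daxx, Suv39h1 and Suv39h2). An E2F word (TTTCCCGC or else TTTGGCGC or else TTTCGCGC or else TTTGCCGC, in 2.26% of promoters) was found for Suv39h1 only, and the CRE word TGACGTCA (1.79%) for Suv39h2 only. Binding at these promoters was not measured in these libraries.

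Expected counts, the numbers of read pairs that RSEM assigned to each gene, summed to between 32454121 and 38492149 per library, and the 10 genes took 0.224% and 0.236% of them in PD100 and 0.275% and 0.287% in PD800 cells. All 10 genes passed the expression filter that 19148 genes passed, each with a mean of at least 10 CPM (read counts relative to library size, scaled with edgeR's TMM factors). The floor of 3 counts, between 0.0743 and 0.0934 CPM, lay far below each of them. Across genes, log2 CPM correlated at 0.984 and 0.992 within the PD100 and PD800 pairs, and at 0.935 to 0.944 between the groups. With 2 libraries against 2, an exact permutation test (two-sided) of 1 gene cannot give a p below 0.33, so differences were tested in edgeR (quasi-likelihood, with the Benjamini-Hochberg correction over all 19148 genes) and called below an adjusted p of 0.01. By this rule 13.1% of all tested genes were higher in PD800 cells and 15.4% were lower, and with a fold change over 2 in addition, 6.28% were higher and 8.81% lower. In these bulk libraries, fewer cells that express a gene and less of its RNA per cell cannot be told apart.

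Atrx encodes the chromatin remodeller of the ATRX-DAXX complex. In PD100 cells 17315 and 14815 read pairs were assigned to it, against 24959 and 23255 in PD800 cells, or 429 and 444 CPM against 694 and 724 CPM. Both PD800 libraries were above both PD100 libraries. The log2 fold change was 0.70 (standard error 0.08, 95% interval 0.50 to 0.90, Benjamini-Hochberg adjusted p = 0.00113, edgeR), a 1.62-fold higher level. With a library left out, 1 group holds 1 library, and only the other pair informs on spread, which edgeR estimates over all genes together. The lone library is assumed to vary like that pair. Fitted so, Atrx was no longer called with either PD800 library left out, while the fold stayed close: without PD800 replicate 1 the log2 fold change was 0.74 with an edgeR adjusted p of 0.0169, and without PD800 replicate 2 it was 0.68 with 0.0229.

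Daxx, the H3.3-specific chaperone of the same complex (chromosome 17, 33909414 to 33915590), was not called. It was measured at 72.9 and 77.9 CPM in PD100 cells and at 64.6 and 64.7 CPM in PD800 cells. These libraries did not overlap, but the log2 fold change of -0.22 (95% interval -0.40 to -0.04) did not pass the edgeR threshold (adjusted p = 0.0551).

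Hira (chromosome 16, 18877037 to 18970309) encodes the chaperone of the other H3.3 pathway. Its level was 32.7 and 39.97 CPM in the PD100 libraries against 28.8 and 30.1 CPM in PD800, which again lay below both PD100 values. The log2 fold change was -0.30 (95% interval -0.58 to -0.03, edgeR adjusted p = 0.0725, not called). Both Daxx and Hira passed the threshold when PD100 replicate 1 was left out, with log2 fold changes of -0.26 and -0.44, in a fit whose spread comes from the PD800 pair alone. Annotated Hira shares 79211 bases with Gm28539 on the same strand, to which RSEM assigned 0 read pairs in all 4 libraries.

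Asf1a, the H3-H4 carrier most tied to the HIRA pathway, showed the largest change in size of the 10 genes. It was assigned 1469 and 1041 read pairs in PD100 cells against 670 and 581 in PD800 cells, or 36.4 and 31.2 CPM against 18.7 and 18.1 CPM. The PD800 libraries were close to each other and far below both PD100 libraries. Its log2 fold change was -0.88 (standard error 0.10, 95% interval -1.13 to -0.63, Benjamini-Hochberg adjusted p = 0.0011, edgeR), a change of -45.7%. In the annotation the whole of Asf1a, 12469 bases, lies within Mcm9 on the opposite strand, and the use of strand in counting is not given in the sources used here. Mcm9 itself had a log2 fold change of -0.53.

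The paralogue Asf1b (chromosome 8, 83955507 to 83970197), whose protein is linked to proliferating cells, had 41.6 and 34.5 CPM in PD100 cells against 37.4 and 33.0 CPM in PD800 cells. It was the only one of the 10 genes whose groups overlapped. The log2 fold change of -0.11 (95% interval -0.40 to 0.17, edgeR adjusted p = 0.473) was not called, and it became 0.03 without PD100 replicate 1 but -0.48 and -0.51 by limma on TPM (adjusted p = 0.0201 and 0.02). The 15 replication and mitosis genes set beside it had 5 members higher and 1 lower, with a median log2 fold change of 0.05. Mki67 (1.09), Mcm7 (0.57), Ccnb1 (0.56) and Tyms (0.46, but just below 0 on the TPM scale) were higher and Mcm5 (-0.45) was lower. These counts were not stable: without either PD800 library 1 was higher and 0 were lower, and by limma on TPM 0 were higher and 1 lower.

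**Figure D1:**
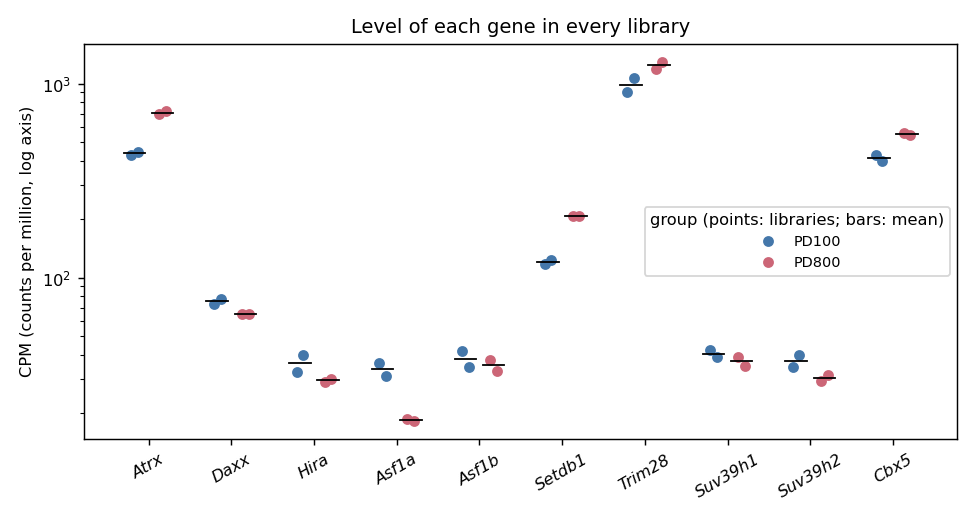
Level in CPM (log axis) of each of the 10 genes in every library, with PD100 in blue, PD800 in red and a black bar at each group's mean. Atrx rises from 436 to 709 CPM and Setdb1 from 120 to 207 CPM, Asf1a falls from 33.8 to 18.4 CPM, and only the Asf1b points of the groups overlap.

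Setdb1, the H3K9 methyltransferase of the TRIM28 pathway, was higher in PD800 cells. Read pairs numbering 4733 and 4089 in PD100 cells against 7442 and 6658 in PD800 cells correspond to 117 and 123 CPM against 207 CPM in both PD800 libraries. The spread within each pair was a small part of the distance between them. The log2 fold change was 0.79 (standard error 0.07, 95% interval 0.61 to 0.97, Benjamini-Hochberg adjusted p = 0.000494, edgeR), a 1.73-fold higher level. On the TPM scale the difference was smaller and narrowly missed the threshold, with a limma log2 difference of 0.52 at a pseudocount of 1 (adjusted p = 0.0106) and 0.54 at 0.1 (0.0107). On that scale the median over all genes also moved, to -0.12 and -0.21, against 0.01 in the edgeR fit. The other genes moved too: at pseudocounts of 1 and 0.1 the limma differences were -0.49 and -0.51 for Daxx, -0.43 and -0.48 for Hira, -0.32 and -0.35 for Suv39h1, -0.47 and -0.53 for Suv39h2, 0.14 for Trim28 and 0.12 for Cbx5 at both, and no call of these 6 genes changed.

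Trim28, the scaffold to which SETDB1 binds (chromosome 7, 12999114 to 13031035), had the highest TPM of the 10 genes in every library. It was measured at 904 and 1073 CPM in PD100 cells and at 1191 and 1293 CPM in PD800 cells, with no overlap. The spread between the PD100 libraries was wide, and the log2 fold change of 0.33 (95% interval 0.05 to 0.61) was not called by edgeR (adjusted p = 0.0573). Without PD100 replicate 2 it was 0.44 and passed the threshold. Annotated Trim28 shares 6137 bases with Zbtb45 on the opposite strand.

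Neither of the SUV39 enzymes was called. Suv39h1 (chromosome X, 8061171 to 8074760) had 42.0 and 38.9 CPM in PD100 cells against 38.8 and 35.1 CPM in PD800 cells, so that the groups were separated by less than the difference within either pair. Its log2 fold change was -0.13 (95% interval -0.35 to 0.09, edgeR adjusted p = 0.275), and it ran from -0.05 without PD800 replicate 2 to -0.21 without PD100 replicate 2, never called. Suv39h2 (chromosome 2, 3455815 to 3475031) had 34.7 and 39.8 CPM in PD100 cells against 29.1 and 31.3 CPM in PD800, and its log2 fold change was -0.30 (95% interval -0.54 to -0.07, edgeR adjusted p = 0.0463). It passed the threshold when PD100 replicate 1 was left out, at -0.40. Suv39h1 shares 13449 bases with the antisense gene Gm14820 and Suv39h2 shares 8316 bases with Dclre1c on the opposite strand, so that here too the origin of some reads is uncertain. The expected counts of Asf1a, Setdb1, Suv39h1 and Suv39h2 were not whole numbers, as happens where RSEM divides read pairs that fit several genes.

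Cbx5 (chromosome 15, 103191544 to 103239816) was at a higher level in both PD800 libraries, at 554 and 541 CPM, than in the PD100 libraries, at 430 and 397 CPM. Its log2 fold change was 0.40 (95% interval 0.20 to 0.61), and its adjusted p of 0.0104 by edgeR's test lay just above the threshold. DESeq2, in contrast, called it (0.39, adjusted p = 0.00048). Upper-quartile scaling also brought it under the threshold in edgeR (adjusted p = 0.00927), as did leaving out PD100 replicate 1 (0.47, adjusted p = 8.04e-05) or PD100 replicate 2 (0.33, adjusted p = 0.00136), while without PD800 replicate 1 or 2 the edgeR adjusted p was 0.151 or 0.116. On the TPM scale the values were closer, at 45.3 and 43.3 against 49.9 and 46.6 TPM.

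Together, 2 of the 10 genes were called higher, 1 lower and 7 were not called. Over all tested genes 13.1% passed as higher and 15.4% as lower, so that these counts do not set the 10 genes apart. At an unadjusted p under 0.05, 4 were higher and 4 lower by edgeR, and at an adjusted p under 0.05, 5 passed. No member changed beyond 2-fold with all 4 libraries in edgeR or DESeq2, but Asf1a did in edgeR without PD100 replicate 2 (-1.01) and by limma on TPM (-1.12 and -1.18 at pseudocounts of 1 and 0.1). In those limma runs the median over all genes was -0.12 and -0.21. In 9 of the 10 genes the CPM of the groups did not overlap, where 73.7% of all tested genes did not. The median log2 fold change of the 10 was -0.12, with 4 values above 0 and 6 below, and the median size was 0.32, against 0.01 and 0.45 over all tested genes. Changes in the 5 chaperones ranged from -0.88 (Asf1a) to 0.70 (Atrx), and in the 5 silencing factors from -0.30 (Suv39h2) to 0.79 (Setdb1).

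**Figure D2:**
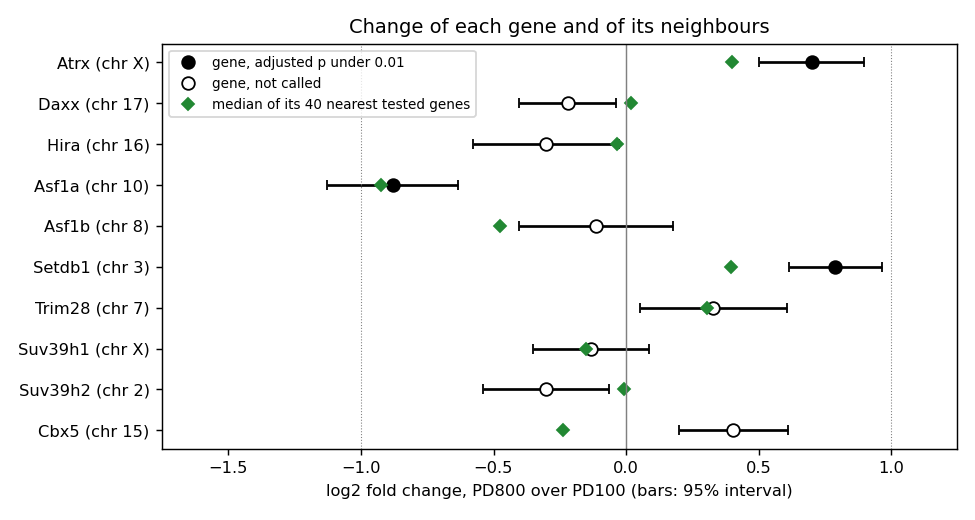
Log2 fold change of PD800 over PD100 (x axis) for each gene with its 95% interval, filled where edgeR's adjusted p was under 0.01, and the median of the 40 nearest tested genes on the same chromosome as a green diamond. Asf1a (-0.88) lies near the median of its neighbours (-0.92, or -0.70 with the 20 nearest), while Cbx5 (0.40) lies above a neighbourhood median of -0.24.

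To set members of a pair or family beside each other, TPM values, which are scaled by transcript length, were used. In PD100 cells the order by TPM was Trim28, Atrx, Cbx5, Daxx, Asf1a, Asf1b, Setdb1, Suv39h1, Hira and Suv39h2, from 531 TPM in the mean of Trim28 to 9.68 in that of Suv39h2. The libraries of neighbours in this order overlapped for Daxx and Asf1a and for Hira and Suv39h2, and lay closer than the spread within a gene for Asf1a and Asf1b, Asf1b and Setdb1, and Suv39h1 and Hira, so that these places in the order are not resolved. In PD800 cells Setdb1 came next after Cbx5, at 29.4 and 28.1 TPM against 20.2 and 19.3 in PD100 cells, and Asf1a came after Asf1b. There the gaps between Asf1b and Asf1a and between Hira and Suv39h2 were again within the spread of the libraries.

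The ratio of Atrx to Daxx was higher in PD800 cells in both libraries. Atrx was at 72.3 and 73.7 TPM in PD100 and at 106 TPM in both PD800 libraries, while Daxx was at 30.2 and 27.6 TPM and then at 21.7 and 19 TPM. Their ratio was therefore 2.39 and 2.67 in PD100 cells against 4.88 and 5.57 in PD800 cells, a log2 difference of 1.04 (exact permutation p = 0.33, the smallest that 2 against 2 allows). With counts per base of the longest annotated transcript, a scale chosen after seeing the data, the difference was 0.92. The length by which RSEM scaled Atrx, which has 27 annotated transcripts, was 4777 and 4392 bases in PD100 and 4388 and 4322 bases in PD800 cells.

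The share of Asf1b against Asf1a was higher in both PD800 libraries on the TPM scale. Asf1a was at 30.8 and 25.3 TPM in PD100 and at 12.4 and 12.1 TPM in PD800 cells, and Asf1b at 20.4 and 20.2 TPM and then at 15.2 and 13.4 TPM. The share of Asf1b in their sum was 39.8% and 44.4% in PD100 cells against 55.0% and 52.4% in PD800 cells, a log2 difference in ratio of 0.68 (exact permutation p = 0.33). The direction held per longest transcript, with a difference of 0.76, but there Asf1b was above Asf1a in all 4 libraries, with ratios of 1.41 and 1.36 in PD100 and 2.47 and 2.25 in PD800 cells. Which paralogue was the more abundant in PD100 cells thus depended on the transcript length used.

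For the SUV39 pair, Suv39h2 to Suv39h1 was 0.773 and 0.872 in PD100 and 0.694 and 0.751 in PD800 cells (log2 difference -0.19, exact permutation p = 0.33), and per longest transcript 0.595 and 0.736 against 0.540 and 0.642, where the groups overlapped (exact permutation p = 0.667). Cbx5 made up 22.7% and 20.1% of the TPM of the 3 HP1 genes Cbx1, Cbx3 and Cbx5 in PD100 cells against 27.1% and 25.3% in PD800 cells. Neither Cbx1 (log2 fold change -0.10) nor Cbx3 (0.03, below 0 on the TPM scale) was called. Of the genes that encode H3.3 itself, H3f3b took 39.4% and 46.7% of the TPM of H3f3a and H3f3b in PD100 and 55.5% and 56.7% in PD800 cells.

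**Figure D3:**
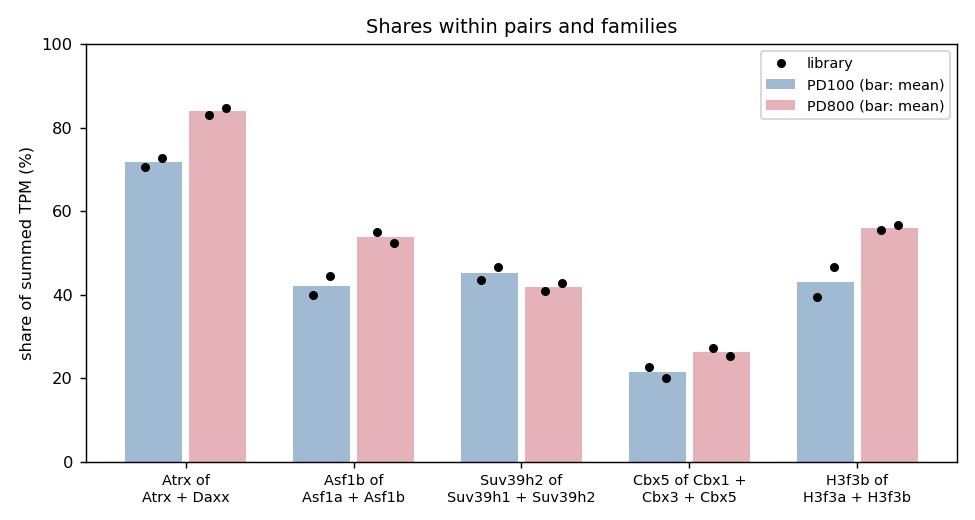
Share of summed TPM (percent, y axis from 0) taken by Atrx, Asf1b, Suv39h2, Cbx5 and H3f3b within the pair or family named under each pair of bars, with bars at the group mean and points for the libraries. The Asf1b share passes from 39.8% and 44.4% in PD100 to 55.0% and 52.4% in PD800, and the Suv39h2 share is 43.6% and 46.6% against 40.97% and 42.9%.

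The lists of related genes hold 52 genes, all of them tested. Among 6 other H3.3 genes and deposition factors, only H3f3b was called with all 4 libraries in edgeR, at 446 and 463 CPM in PD100 and 843 and 849 CPM in PD800 cells (log2 fold change 0.90, standard error 0.08, edgeR adjusted p = 0.000461). H3f3b lies on chromosome 11, 5.94 Mb before the last annotated base. The other H3.3 gene, H3f3a, had 296 and 239 CPM and then 298 and 287 CPM (0.13, not called). Ubn1 (-0.26), Ubn2 (0.14) and Cabin1 (-0.08), partners of HIRA, and Dek (0.16), an H3.3 chaperone, were not called either. Without PD100 replicate 1, H3f3a (0.29) was also called higher and Ubn1 (-0.31) lower, and at an adjusted p under 0.05 with all libraries 1 gene was lower. The signs of H3f3a, Ubn2 and Dek turned on the TPM scale.

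Of the 11 general H3-H4 chaperones, 1 was higher and 1 lower by edgeR, with a median log2 fold change of -0.04. DESeq2 gave 1 higher and 2 lower, and more were called lower in the edgeR fits without either PD100 library. Supt6, which travels with RNA polymerase II, was lower (-0.67, edgeR adjusted p = 0.00141), and Mms22l, which with TONSL binds new histones at broken forks, was higher (0.35, edgeR adjusted p = 0.00915). Both calls were lost without either PD800 library, and that of Mms22l also with DESeq2's size factors and by limma on TPM. Among the 7 other H3K9 methyltransferases and cofactors, 0 were called by edgeR or by DESeq2 with all 4 libraries, and 1 was higher and 1 lower at an unadjusted edgeR p under 0.05. The values ran from -0.24 for Ehmt1 to 0.24 for Atf7ip. On the TPM scale the signs of Atf7ip, Ehmt2 and Wiz turned, and Atf7ip went as low as -0.43. Ehmt1 (-0.34) was called without PD100 replicate 1, and Atf7ip (0.27) and Atf7ip2 (-0.42) without PD100 replicate 2.

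The other 18 HP1 proteins and silencing factors had 3 higher and 1 lower by edgeR, with a median of 0.02, and 4 higher and 3 lower by DESeq2. The number called was not stable: it was smaller without either PD800 library and larger without either PD100 library. Limma on TPM gave 1 higher and 2 lower. Zfp57, a KRAB zinc finger protein that recruits TRIM28 to imprinted regions, was at 183 and 152 CPM in PD100 and at 415 and 413 CPM in PD800 cells (log2 fold change 1.302, edgeR adjusted p = 0.00036), and Zfp445, which also protects imprints, was also higher (0.40, edgeR adjusted p = 0.00619). Kmt5c, which methylates H4K20 in heterochromatin, was higher (0.69), and Morc2a, which acts with the HUSH complex, was lower (-0.60). The HUSH subunits Mphosph8 (-0.41, edgeR adjusted p = 0.0112, close to the threshold), Pphln1 (-0.33) and Fam208a (0.13) were not called with all libraries. With each library left out, Mphosph8 ran from -0.49 to -0.35 and Pphln1 from -0.42 to -0.26. The sign of Fam208a turned on the TPM scale. Adnp, which recruits HP1 and a remodeller to chromatin, had the lowest value of the list (-1.03), at 7.69 and 10.9 CPM in PD100 against 3.36 and 5.76 CPM in PD800 cells. With all 4 libraries it was not called either (edgeR adjusted p = 0.029), and its log2 fold change depended on the libraries used. It was -1.46 without PD800 replicate 2 and -0.68 without PD800 replicate 1.

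Enzymes that remove H3K9 methylation changed in both directions. Of the 10 H3K9 demethylases, 3 were higher and 2 lower, with a median of 0.07. Kdm3a rose from 76.5 and 72.4 CPM to 167 and 164 CPM (log2 fold change 1.15, edgeR adjusted p = 0.000156), Kdm3b by 0.99 and Kdm4b by 0.83 on the log2 scale. Kdm4c was lower (-0.85, edgeR adjusted p = 0.000423), as was Jmjd1c (-0.73, edgeR adjusted p = 0.00109), which, like Asf1a, lies on chromosome 10. Without either PD800 library Jmjd1c was not called (-0.78 and -0.68), which left 1 gene lower, and limma on TPM gave 2 higher.

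**Figure D4:**
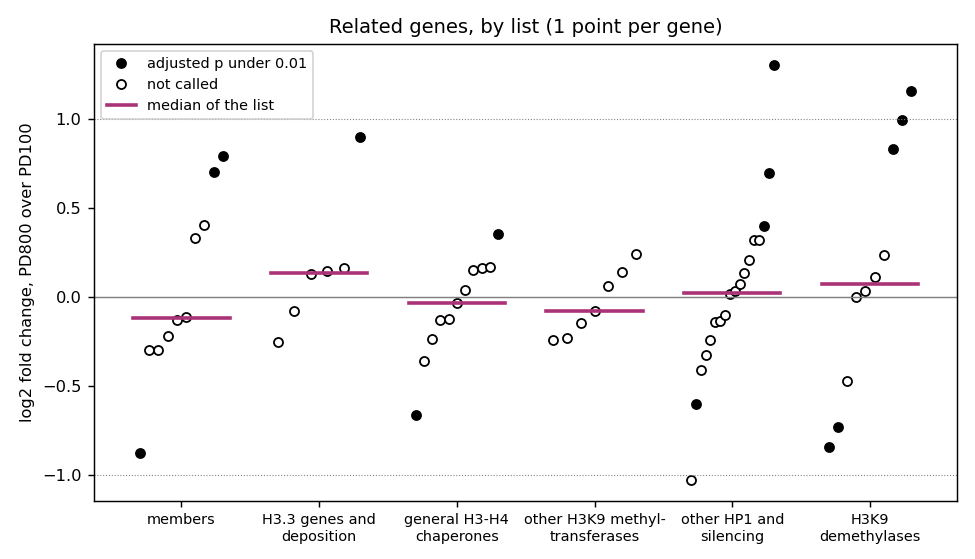
Log2 fold change of PD800 over PD100 (y axis) for every gene of each list (x axis), filled where edgeR's adjusted p was under 0.01, with the median of each list as a bar. The medians lie between -0.12 for the 10 genes of the report and 0.13 for the H3.3 list, and the demethylases spread from -0.85 to 1.15.

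The chromosomal neighbours of the 3 called genes had medians of the same sign as the gene on both sides of Asf1a, and mainly at higher coordinates for Setdb1 and Atrx, where the lower side had medians near 0. Asf1a lies on chromosome 10 from 53596757 to 53609225 (GRCm38). The median log2 fold change of the 40 tested genes nearest to it was -0.92, against -0.22 over chromosome 10 and 0.01 over all genes, and none of the 40 was called higher. With the 20 nearest the median was -0.70, so that Asf1a lay 0.04 above the one and 0.18 below the other. From the start of the chromosome to 20 Mb beyond Asf1a, medians in bins of distance lay between -0.96 and -0.69. From 20 to 40 Mb beyond, the median of 311 genes was 0.21, and over the 244 genes further on it was 0.17. The bins were set after the medians of the neighbours had been seen.

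Setdb1 lies on chromosome 3 from 95323525 to 95357202, at a place where the medians differ between its sides. The 188 tested genes within 10 Mb at lower coordinates had a median of 0.02, and the 175 within 10 Mb at higher coordinates a median of 0.60. Within 5 Mb the medians were 0.12 (67 genes) and 0.53 (102 genes). Over the 4 pairs of a PD800 and a PD100 library, the last of these ranged from 0.41 to 0.54. Beyond 10 Mb, bins at higher coordinates stayed between 0.48 and 0.76 and bins at lower coordinates between 0.06 and 0.12. The log2 fold change of Setdb1, 0.79, was 0.39 above the median of its 40 nearest genes.

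Atrx lies on chromosome X from 105797615 to 105929403. Its 40 nearest genes had a median of 0.40, but the 20 nearest a median of 0.22, and chromosome X as a whole 0.04. The 80 genes within 10 Mb at lower coordinates had a median of 0.01 and the 31 within 10 Mb at higher coordinates one of 0.48, against 1.42 in the 18 of them within 5 Mb, above the value of Atrx. Over the 4 pairs of libraries the first of these ranged from -0.08 to 0.15 and the second from 0.23 to 0.62. Between 20 and 40 Mb the median was 1.16 over 95 genes at higher coordinates and -0.13 over 97 at lower coordinates, and beyond 40 Mb at higher coordinates it was 0.13 over 107 genes. Atrx itself, at 0.70, was 0.30 above the median of the 40 nearest.

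**Figure D5:**
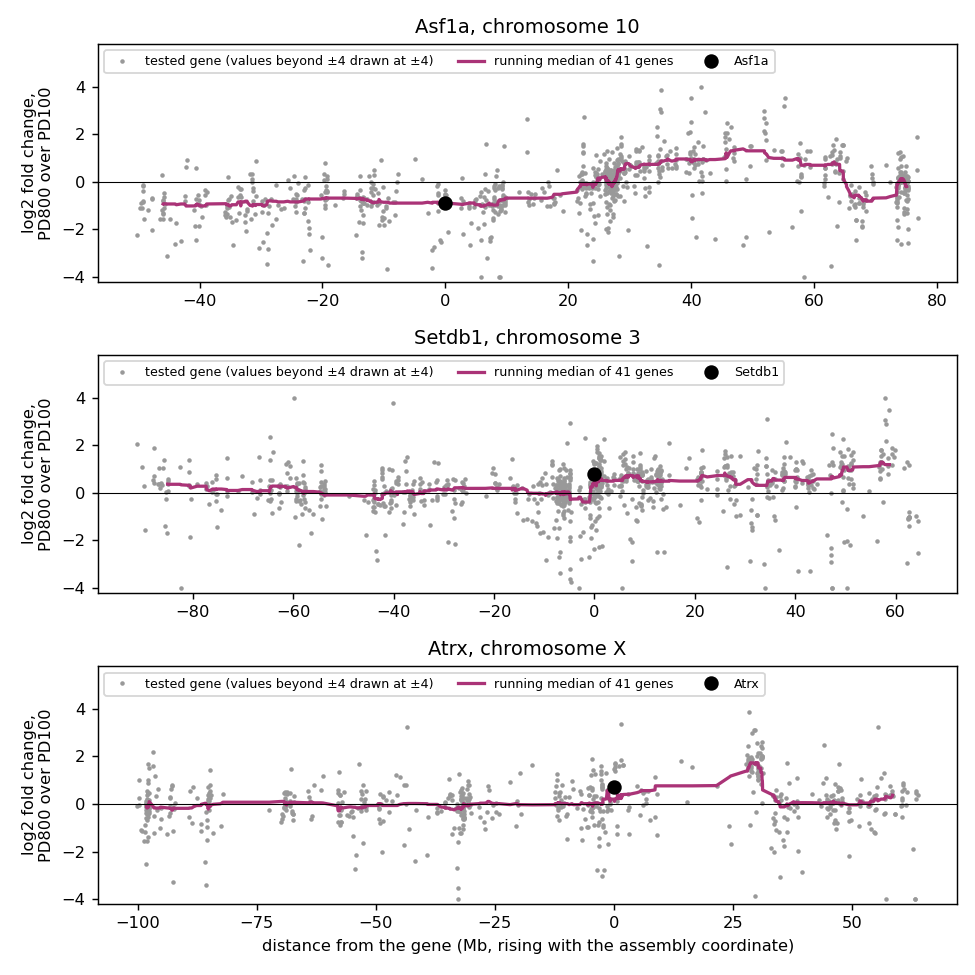
Log2 fold change of PD800 over PD100 (y axis) of every tested gene on the chromosome against its distance in Mb from Asf1a, Setdb1 or Atrx (x axis), with a running median of 41 genes and the named gene as a black point. From the start of chromosome 10 to 20 Mb beyond Asf1a the bins have medians of -0.96 to -0.69, and around Setdb1 the median is 0.12 within 5 Mb on the lower side and 0.53 on the higher.

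The other genes stood differently to their surroundings. Trim28 (0.33) lay close to the median of its 40 neighbours on chromosome 7 (0.31, or 0.44 with 20). Cbx5 (0.40) was 0.64 above a neighbourhood on chromosome 15 with a median of -0.24, the largest distance of the 10, and Asf1b (-0.11) was 0.36 above its own on chromosome 8 (-0.47). Cbx5 lies near the end of its chromosome, 0.66 Mb before the last annotated base. Suv39h1 (-0.13) lay beside a median of -0.15 that became 0.14 with 20 neighbours. Daxx, Hira and Suv39h2 were 0.24, 0.27 and 0.29 below neighbourhoods with medians of 0.02, -0.03 and -0.01. DNA copy number was not analysed here, and its part in any of these values was not tested.

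The genes whose pattern over the 4 libraries was nearest to those of Asf1a and Setdb1, the genes with the largest changes, were sought among the 10705 genes whose mean reached 5 CPM, by the root mean square difference of centred log2 CPM. For Asf1a they were Ube2d1 (0.0126), Gm21781 (0.0138) and Tab2 (0.0232), all on chromosome 10. For Setdb1 they were Ints3 (0.0116) and Ppa2 (0.0124) on chromosome 3 and Capsl (0.0119) on chromosome 15. With 4 libraries in 2 groups, such a likeness holds little beyond the size of the group difference.

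The cells of the groups differed in cell type markers as well. Of 9 embryonic stem cell markers, 4 were called higher and 0 lower by edgeR (DESeq2 called 7 and 1, and at an unadjusted edgeR p under 0.05 it was 7 and 1, but without either PD800 library 2 and 0, and by limma on TPM 2 and 1), with Nanog (2.32) and Esrrb (2.06) changed most and summed levels of 2216 and 2532 CPM in PD100 and 3858 and 3972 CPM in PD800 cells. All 10 primitive endoderm markers were lower (median log2 fold change -3.47), and their sum was 2255 and 2509 CPM against 215 and 226 CPM. Among markers of fibroblasts, 5 of the 9 tested were lower, the sum was 398 and 404 CPM against 285 and 238 CPM, and Lum was at or under the floor in every library. Fn1 made up most of that sum, at 349 and 333 CPM in PD100 and 273 and 225 CPM in PD800 cells. Col1a1 was at 13.03 and 24.4 CPM in PD100 and 1.95 and 2.52 CPM in PD800 cells. The cells for nucleic acid extraction had been grown without feeders, per the methods. The part of these differences in the values of the 10 genes was not tested.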

How the data were processed

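RNA (total RNA by the labels, while the paper's text speaks of mRNA sequencing) was extracted with Trizol from DKO741 cells and sequenced as paired ends. Per the submitters' processing notes and the paper, the authors aligned reads to mm10 with STAR 2.5.3a, and RSEM 1.3.0 made the deposited expected counts, TPM and FPKM values, with DESeq2 1.18.1 used for their own comparisons. An expected count, as deposited, divides a read pair among the genes it fits and is not scaled for depth. The deposited TPM and FPKM values are scaled for effective transcript length and depth, and TPM has the same sum in each library. The annotation release is not given in the sources used here, and 53274 of 53379 identifiers were found, without version, in GENCODE M21 (GRCm38).

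Groups follow the doubling number in each library's title. Expected counts were rounded and fitted for all genes with edgeR 4.0.16 under R 4.3.3, using TMM factors, filterByExpr (minimum count 10), the quasi-likelihood test and Benjamini-Hochberg adjustment over 19148 genes. Calls needed an adjusted p under 0.01. Depth ran from 32454121 to 38492149 counts, and the floor of 3 counts covers counting error only. P-values measure the spread between 2 libraries per group or, with a library left out, within the other group alone. The edgeR fits estimate this spread with all genes together, so that a p-value does not rest on the values of that gene alone. The script was tested on simulated counts. The members and lists were chosen with earlier results of these data known. All 10 members are named, then up to 4 called genes with the largest change from each list, every gene of the H3.3 list, and the 3 genes nearest in pattern to the 2 most changed members. Other genes, among them Mcm9, the HUSH subunits, Col1a1, Adnp, Ehmt1, Atf7ip, Cbx1, Cbx3, Atf7ip2, Jmjd1c and Mcm5, were named after their values were seen.

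Alternatives were DESeq2's size factors and its Wald test (DESeq2 1.42.0), upper-quartile scaling, protein-coding genes only, no filter, at least 10 counts in every library, limma 3.58.1 on log2(TPM + 1) and log2(TPM + 0.1), the replicate number as a block, an adjusted p under 0.05, and each library left out. Ratios were also computed from FPKM, from counts per effective length and, chosen after seeing the data, from counts per base of the longest transcript.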

Additional observations from a re-analysis of the deposited data

How the results depend on the processing

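The log2 fold change of Asf1a kept its sign and its call under all 14 alternatives, from -1.18 to -0.76 with an adjusted p of at most 0.00777. Leaving out each library gave log2 fold changes from 0.68 to 0.74 for Atrx, from -0.26 to -0.20 for Daxx, from -0.44 to -0.17 for Hira, from -0.26 to 0.03 for Asf1b (0.032 without PD100 replicate 1, the only change of sign), from 0.21 to 0.44 for Trim28, from -0.21 to -0.05 for Suv39h1, from -0.40 to -0.22 for Suv39h2 and from 0.33 to 0.47 for Cbx5. The same runs called 1 to 4 of the 10 genes higher and 1 to 4 lower, and 1257 to 4079 genes higher and 1567 to 4223 lower over all. Setdb1 was not called by limma on TPM (0.52 and 0.54). Cbx5 was called with upper-quartile scaling (0.42), protein-coding genes only (0.43), no filter (0.40), DESeq2 (0.39), at an adjusted p under 0.05 (0.40) and without either PD100 library, Trim28 with no filter (0.33) and Suv39h2 at an adjusted p under 0.05 (-0.30). No filter gave 4 of the 10 genes higher and 3991 genes over all. Limma on log2(TPM + 1) and log2(TPM + 0.1) each gave 1 of the 10 higher, 712 and 706 genes higher over all, 297 and 533 higher beyond 2-fold, and the former 920 lower beyond 2-fold. At an adjusted p under 0.05, 2 of the 10 were lower, with 4224 genes higher and 4515 lower over all. The causes were not tested.

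Libraries with the same replicate number share only a number: their deviations correlated at 0.265 across genes, and 2 pairs cannot show a pairing. With the replicate number as a block, Trim28 (0.33), Suv39h2 (-0.30) and Cbx5 (0.41) were also called, so that 4 of the 10 genes were higher and 2 lower, and 3854 genes were higher over all. Atrx (0.70), Setdb1 (0.79) and Asf1a (-0.88) were called there too.

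Depth limits none of the 10 genes. The 2 libraries per group, the single clone, the reads that overlapping genes share and the transcript lengths behind TPM limit the values above.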
